A study of Homo sapiens with 6 samples.

Results

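The genes described here are the nuclear genes of the mitochondrial respiratory chain and ATP synthase. They were chosen by symbol alone, as protein-coding genes outside the mitochondrial genome whose GENCODE symbol begins with NDUF, with SDH followed by A to D or AF, with UQCR, UQCC or ATP5, or with COX followed by a number, plus CYC1 and CYCS. This gave 117 genes of the 58096 counted, and 107 of them passed the filter on low counts that left 13975 genes for testing. Total RNA was sequenced from ALL-SIL, an established human T-cell acute lymphoblastic leukaemia line, in 3 libraries labelled JQ1 and 3 labelled DMSO. JQ1 is an inhibitor of the BET bromodomain proteins, which bind acetylated histones, and DMSO is its usual solvent. The treatment note gives 1 µM JQ1 for 24 h and is repeated word for word for the DMSO libraries, so the grouping rests on the sample titles. Nothing in the labels says whether replicates were separate cultures, so each p-value reflects only how these libraries vary, and that variation may be technical. All libraries come from 1 cell line.

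The respiratory chain passes electrons from NADH (complex I) and succinate (complex II) through coenzyme Q to complex III, then through cytochrome c to complex IV, where oxygen is reduced. Complexes I, III and IV pump protons, and ATP synthase (complex V) uses the proton gradient to make ATP. Most subunits are made from nuclear genes and imported, a few are encoded by mitochondrial DNA, and dedicated assembly factors insert cofactors and join the parts. Proliferating leukaemic T cells use the chain for ATP and to regenerate oxidised cofactors for nucleotide synthesis.

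The counts assigned to genes ranged from 15925885 to 25293884 per library. Levels are given as CPM, the count of a gene scaled to a common library total with trimmed-mean factors, so each is a share of the library's RNA. In bulk RNA, fewer cells and less RNA per cell cannot be told apart. Of 12 T-lineage leukaemia markers, 11 were tested, 8 fell and 1 (TLX1) rose. Their summed level was 1957 to 2159 CPM in DMSO and 1310 to 1587 CPM in JQ1. Of 17 markers of other cell types, 2 were tested and 6 (COL1A2, HBB, HBA1, MS4A1, KRT5 and MPO) had no read in any library. The sum of these 17 was 15.04 to 21.8 CPM in DMSO and 3.93 to 7.80 CPM in JQ1, and PDGFRB and CD79A made up most of it. PDGFRB fell and CD79A was not called. The part of these marker changes in the results below was not tested.

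More respiratory chain genes fell than rose, by modest amounts. At an adjusted p of 0.05 (edgeR quasi-likelihood test, adjusted over all tested genes), 33 of 107 fell, or 30.8%, against 20.6% of all genes tested and 24.3% of the protein-coding ones. In the other direction 6 rose, where the share over all tested genes was 15.9% and over protein-coding ones 17%. No call was made for the remaining 68. The median log2 change (JQ1 over DMSO) was -0.12 over the tested members, 0.004 over all tested genes and -0.03 over the protein-coding ones. The changes ran from -0.88 (COX10) to 0.62 (SDHAF4).

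The direction recurred in each same-numbered pair of libraries. The members' median log2 ratio was -0.20, -0.13 and -0.09 in pairs 1, 2 and 3, and 77, 72 and 68 of the 107 were below 0. The median over all tested genes lay between -0.006 and 0.002 in the same pairs. In 43 of 107 members (40.2%) every JQ1 library lay below every DMSO library, against 26% of all tested genes, and in 11 every JQ1 library lay above, against 22.9%. The summed level of all 117 genes was 8441 ± 367 CPM (SD, n = 3) in DMSO and 7778 ± 232 CPM in JQ1, a change of -7.86%. With the replicate number as a block, 45 members fell and 10 rose, and 29.6% and 27.3% of all tested genes did so.

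**Figure D1:**
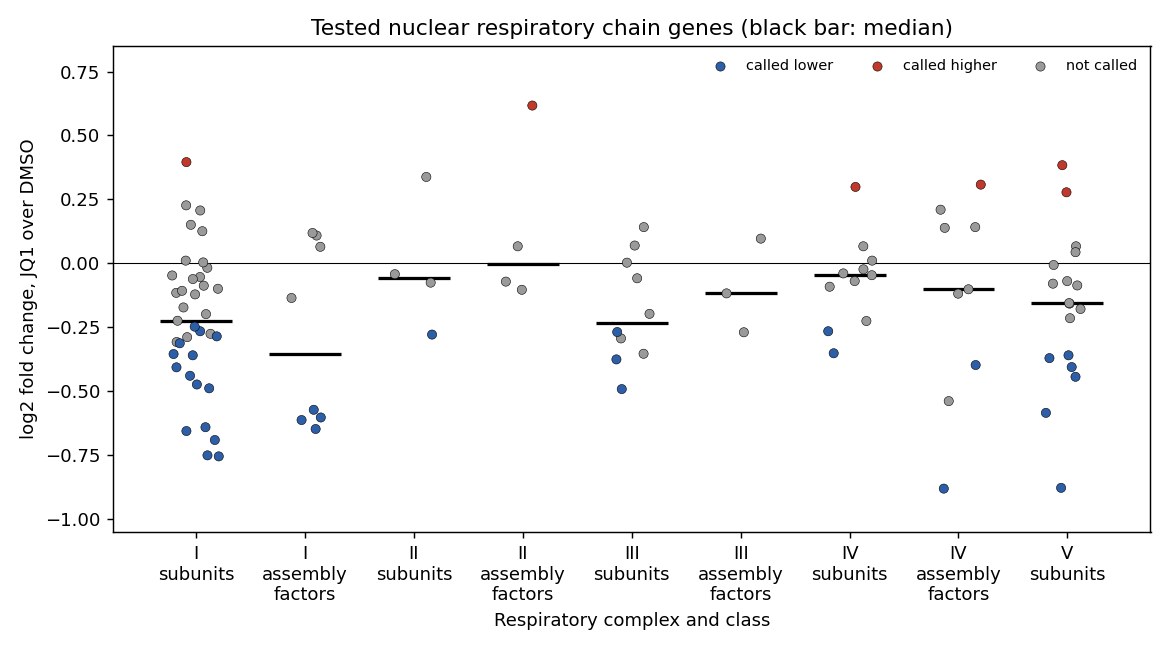
Each point is 1 tested subunit or assembly gene, placed by complex and class and coloured by its call, with its log2 change (JQ1 over DMSO) on the vertical axis. Complex I, with 45 of the 107 tested members, holds 19 of the 33 genes called lower, and COX10 and ATP5MC1 lie lowest of all.

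Promoter sequences are shown for 5 called genes because they cover 4 of the 5 motifs searched and both directions of change. RefSeq (GRCh38.p14) had a promoter entry for 94 of the 117 members, and the 250 bases before each start were searched on both strands. The motifs were CACGTG (the E-box of MYC and its relatives), GCATGCGC (the core of the NRF1 site), CCGGAAG (the core site of the ETS family, which includes GABP), AAGATGGC (YY1) and CCAAT (NF-Y). None of these strings contains another, but the NRF1 core and its complement overlap in the full palindrome. All printed stretches lie on the plus strand, are written 5′ to 3′ and end at the base before the RefSeq start, and capitals mark the motif letters. They are NDUFB4 (chr3:120596086-120596335), COX10 (chr17:14069254-14069503), COX14 (chr12:50111986-50112235), COX6A1 (chr12:120437863-120438112) and ATP5MC1 (chr17:48892537-48892786).
NDUFB4: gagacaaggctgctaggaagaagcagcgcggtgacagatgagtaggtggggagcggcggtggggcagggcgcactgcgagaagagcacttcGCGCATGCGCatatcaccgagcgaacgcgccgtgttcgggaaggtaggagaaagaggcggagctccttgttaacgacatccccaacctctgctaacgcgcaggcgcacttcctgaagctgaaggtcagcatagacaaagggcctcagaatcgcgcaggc
COX10: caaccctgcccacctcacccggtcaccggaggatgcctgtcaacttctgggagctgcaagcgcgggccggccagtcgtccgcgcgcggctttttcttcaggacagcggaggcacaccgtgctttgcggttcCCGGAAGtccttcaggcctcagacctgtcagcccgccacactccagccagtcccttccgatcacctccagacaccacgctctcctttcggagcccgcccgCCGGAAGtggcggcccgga
COX14: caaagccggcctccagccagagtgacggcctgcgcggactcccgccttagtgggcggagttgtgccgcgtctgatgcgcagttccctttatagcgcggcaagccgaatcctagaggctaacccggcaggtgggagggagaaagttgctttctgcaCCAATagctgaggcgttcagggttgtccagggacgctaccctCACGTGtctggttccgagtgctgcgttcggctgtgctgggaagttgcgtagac
COX6A1: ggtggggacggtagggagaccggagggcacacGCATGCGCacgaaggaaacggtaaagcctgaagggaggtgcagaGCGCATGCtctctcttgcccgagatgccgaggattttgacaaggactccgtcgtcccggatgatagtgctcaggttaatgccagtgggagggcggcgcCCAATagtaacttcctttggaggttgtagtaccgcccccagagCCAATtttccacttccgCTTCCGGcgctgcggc
ATP5MC1: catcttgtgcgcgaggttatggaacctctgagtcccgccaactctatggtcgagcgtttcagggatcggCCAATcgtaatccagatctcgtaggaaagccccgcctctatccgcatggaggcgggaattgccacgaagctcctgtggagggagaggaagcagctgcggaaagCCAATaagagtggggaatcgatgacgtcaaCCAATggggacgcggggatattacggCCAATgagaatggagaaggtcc

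In these windows NDUFB4 has the NRF1 core on both strands, 159 and 157 bases before the start, and COX10 has CCGGAAG at 119 and 19 bases before it. COX14 has CCAAT at 95 and CACGTG at 53 bases. COX6A1, which rose, has the NRF1 core at 218 and, on the minus strand, 174 bases, CCAAT at 76 and 33 bases, and CCGGAAG on the minus strand at 16 bases. ATP5MC1 has CCAAT at 181, 78, 48 and 22 bases. CCGGAAG was in 23.4% of the 94 member windows and in 10.7% of 22199 RefSeq protein-coding windows of the same length. For the NRF1 core these shares were 18.1% and 3.26%. CACGTG was in 8.51% and 7.37%, CCAAT in 30.9% and 32.7%, and AAGATGGC in 1.06% and 1.38%. Among the 27 windows of genes that fell, 8 held CCGGAAG (29.6%), 5 held the NRF1 core (18.5%) and 3 held CACGTG (11.1%). Among the 56 windows of genes with no call, 12 held CCGGAAG (21.4%), 11 held the NRF1 core (19.6%) and 5 held CACGTG (8.93%). With 5 windows among the genes that rose, of which 4 held CCAAT and 2 held CCGGAAG, shares there carry little weight. These matches describe letters and do not show binding.

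Complex I, the NADH dehydrogenase, held 45 of the 107 tested members and 19 of the 33 that fell. Of its 45 tested genes 42.2% fell, against 20.6% of all tested genes and 24.3% of the protein-coding ones. In the other direction 1 (NDUFV3) rose, and the median log2 change was -0.22. The complex has a peripheral arm that carries the flavin and iron-sulphur clusters and a membrane arm that pumps protons. The NDUFB and NDUFC genes encode accessory subunits of the membrane arm, and 6 of their 13 members fell, 4 of 11 and 2 of 2. The 4 with the smallest p in the complex were all NDUFB genes.

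NDUFB10 (ENSG00000140990.14, chromosome 16, 1959508 to 1961975 in GENCODE 29 on GRCh38) stood at 80.4, 78.3 and 81.8 CPM in the DMSO libraries and at 47.8, 47.3 and 47.9 CPM in the JQ1 libraries. The groups are far apart, with a log2 change of -0.75 ± 0.08 (SE) and an edgeR adjusted p of 7.8e-05, a level 1.68-fold higher in DMSO. NDUFB4 was at 70.3, 64.9 and 64.6 CPM in DMSO and at 42.9, 44.4 and 40.8 CPM in JQ1 (log2 change -0.64 ± 0.09, edgeR adjusted p = 0.00032). NDUFB7 was at 40.2, 38.2 and 43.3 CPM in DMSO and at 22.1, 24.4 and 25.7 CPM in JQ1 (log2 change -0.75 ± 0.10, edgeR adjusted p = 0.00034). All JQ1 libraries lay below all DMSO libraries for these genes, and the drop was many times the spread between replicates. NDUFB8 was at 35.1, 33.7 and 35.5 CPM in DMSO and at 21.5, 23.6 and 21.1 CPM in JQ1 (log2 change -0.66 ± 0.10, edgeR adjusted p = 0.00057). Here too the groups did not overlap, but 33.8% of the exon bases of NDUFB8 are shared with another gene on the same strand. NDUFB4 has 12 named pseudogenes, so its count depends on how near-identical reads were assigned. In the membrane arm NDUFC1 also fell (log2 change -0.69 ± 0.11), as did NDUFC2 (-0.27).

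The NDUFS genes encode subunits that were named for the iron-sulphur fraction of the complex, several of which hold clusters. Of 8 tested, 6 fell (75%), beside 20.6% of all tested genes and 24.3% of the protein-coding ones. All 8 had a negative log2 change. Those named here include the core subunits NDUFS3 (log2 change -0.35), NDUFS8 (-0.29) and NDUFS1 (-0.25), all of which fell. Of the exon bases of NDUFS3, 19.65% are shared with another gene on the same strand. The accessory subunits NDUFS5 (-0.44) and NDUFS6 (-0.41) fell. NDUFS5 had the highest level per kilobase of transcript in complex I, 217 ± 14.8 CPM per kb (SD, n = 3) in DMSO and 160 ± 8.70 in JQ1. Its level was 113, 114 and 127 CPM in DMSO and 81.6, 88.9 and 90.5 CPM in JQ1, with no overlap.

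Of 13 tested NDUFA genes, accessory subunits of both arms, 3 fell (23.1%), near the 20.6% of all tested genes. They were NDUFA9 (log2 change -0.47), NDUFAB1, the mitochondrial acyl carrier protein (-0.36), and NDUFA5 (-0.31). The NDUFAB1 groups overlap, with JQ1 replicate 1 at 62.3 CPM and DMSO replicate 2 at 61.8 CPM. NDUFA5 has 12 named pseudogenes. NDUFV3, an accessory subunit beside the flavin site, was the 1 gene of complex I to rise. It stood at 47.3, 45.6 and 43.8 CPM in DMSO and at 65.6, 55.6 and 58.3 CPM in JQ1 (log2 change 0.40 ± 0.09, edgeR adjusted p = 0.0073). Its groups did not overlap.

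Of the 8 NDUFAF genes, the assembly factors of complex I, 4 fell (50%) and none rose, beside 20.6% and 15.9% of all tested genes. Their median log2 change was -0.35. DESeq2 and limma-voom also called 0 higher, and 0 were higher at an unadjusted edgeR p of 0.05. NDUFAF8 was at 44.1, 40.7 and 51.2 CPM in DMSO and at 30.5, 27.3 and 31.2 CPM in JQ1 (log2 change -0.61 ± 0.11, edgeR adjusted p = 0.0018). NDUFAF4 was at 40.3, 36.9 and 34.9 CPM in DMSO and at 27.9, 22.3 and 23.5 CPM in JQ1 (log2 change -0.60 ± 0.11, edgeR adjusted p = 0.0023). Both pairs of groups stood apart. NDUFAF6 was at 59.1, 47.5 and 52.5 CPM in DMSO and at 44.1, 28.4 and 34.4 CPM in JQ1 (log2 change -0.57 ± 0.15, edgeR adjusted p = 0.016). NDUFAF2, a factor for the late steps of assembly, was at 8.03, 6.21 and 6.59 CPM in DMSO and at 4.89, 3.85 and 4.51 CPM in JQ1 (log2 change -0.65 ± 0.18, edgeR adjusted p = 0.017). These groups do not overlap either, although JQ1 replicate 1 of NDUFAF6 lies close to the lowest DMSO library. NDUFAF1, NDUFAF3, NDUFAF5 and NDUFAF7 had log2 changes from -0.14 to 0.12 and no call.

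Several complex I calls missed the threshold in fits with 1 library left out, which have fewer samples. Without DMSO replicate 1, NDUFAF2, NDUFAF6, NDUFAB1, NDUFC2, NDUFS1, NDUFS3 and NDUFS8 were no longer called, and the complex had 12 genes lower in place of 19. In that fit 17.3% of all tested genes fell. Dropping JQ1 replicate 2 ended the calls of NDUFA5, NDUFAB1, NDUFAF2, NDUFC2, NDUFS1 and NDUFS3. Dropping JQ1 replicate 3 ended those of NDUFAB1, NDUFAF6, NDUFC2, NDUFS1, NDUFS3 and NDUFS8. Either fit had 13 genes lower in the complex, beside 18.3% and 17.1% of all tested genes. NDUFC2 and NDUFS1 also lost their calls without JQ1 replicate 1 or DMSO replicate 2, NDUFS8 without JQ1 replicate 1 or DMSO replicate 3, and NDUFAB1 without DMSO replicate 3. Over every library whose removal ended a call, the edgeR adjusted p ran from 0.07 to 0.13 for NDUFS1, 0.074 to 0.14 for NDUFC2, 0.084 to 0.13 for NDUFAB1, 0.065 to 0.08 for NDUFS3 and 0.056 to 0.069 for NDUFS8. It ran from 0.059 to 0.064 for NDUFAF2 and from 0.05 to 0.058 for NDUFAF6, and was 0.058 for NDUFA5. The fitted log2 changes in those fits stayed negative, between -0.56 and -0.20. DESeq2 on all 6 libraries did not call NDUFC2 (adjusted p = 0.074) or NDUFS1 (0.053). NDUFC2 also missed the threshold with relative log expression factors (edgeR adjusted p = 0.052). Without the filter on low counts both genes missed it (edgeR adjusted p = 0.072 for NDUFC2 and 0.052 for NDUFS1). With the replicate block 23 complex I genes fell in place of 19, and 29.6% of all tested genes did so. The added ones were NDUFA11, NDUFA13, NDUFB9 and NDUFS4 (edgeR adjusted p from 0.00011 to 0.038). In that fit 3 rose, NDUFB1 and NDUFB5 in addition to NDUFV3, beside 27.3% of all tested genes.

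**Figure D2:**
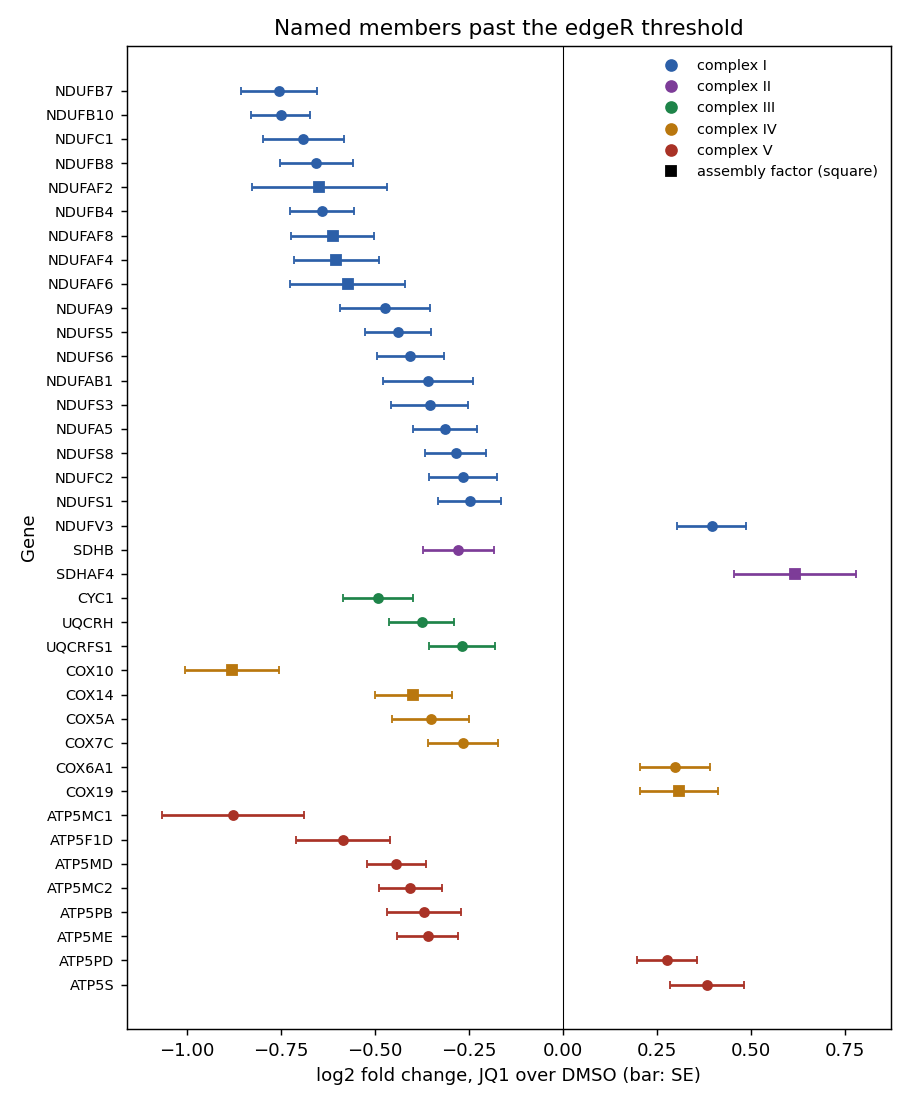
The log2 change (JQ1 over DMSO) of the named members that were called is plotted with its standard error, coloured by complex, with squares for assembly factors. Genes that fell lie left of 0 and the 6 that rose lie right of it, and COX10, ATP5MC1 and the leading NDUFB genes reach furthest left.

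Complex II, succinate dehydrogenase, also belongs to the citric acid cycle and has no subunit encoded in mitochondrial DNA. Of its 8 genes 1 subunit fell and 1 assembly factor rose, beside 20.6% and 15.9% of all tested genes. The median log2 change was -0.06. SDHB, the iron-sulphur subunit, was at 73.0, 64.2 and 63.4 CPM in DMSO and at 59.8, 53.1 and 52.3 CPM in JQ1 (log2 change -0.28 ± 0.10, edgeR adjusted p = 0.042). The gap between its groups is smaller than the spread inside either. SDHAF4, which acts on the flavin-loaded SDHA before it joins SDHB, was at 7.98, 10.7 and 11.4 CPM in DMSO and at 13.4, 16.6 and 16.4 CPM in JQ1 (log2 change 0.62 ± 0.16, edgeR adjusted p = 0.013). This was the largest rise among the members, at a low level, and its groups did not overlap.

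SDHA, the flavin subunit, was at 150, 121 and 169 CPM in DMSO and at 184, 155 and 218 CPM in JQ1. Its groups overlap and it was not called (log2 change 0.34 ± 0.15, edgeR adjusted p = 0.1), yet it was the largest positive change among the members with no call. Each JQ1 library lay above the DMSO library of the same number, and with the replicate block SDHA rose (edgeR adjusted p = 1.6e-05). This makes 2 genes higher in the complex in that fit, beside 27.3% of all tested genes. SDHA had the highest level per kilobase in complex II, 61.3 ± 10.1 CPM per kb in DMSO and 77.6 ± 13.1 in JQ1. SDHC and SDHD, the membrane anchors, had log2 changes of -0.04 and -0.08 with no call, and SDHAF1 to SDHAF3 lay between -0.10 and 0.07. SDHB was not called by DESeq2 on all 6 libraries (adjusted p = 0.064), which left 0 genes of the complex lower. It also missed the threshold in the edgeR fits that lacked the second or the third JQ1 library, or the first or the second DMSO library (edgeR adjusted p from 0.064 to 0.14).

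Complex III, the cytochrome bc1 complex, moves electrons from reduced coenzyme Q to cytochrome c. Of 13 tested genes 3 fell (23.1%), near the 20.6% of all tested genes and 24.3% of the protein-coding ones. None rose, and the median log2 change was -0.20. DESeq2, limma-voom and an unadjusted edgeR p of 0.05 also gave 0 higher, and DESeq2 called 2 lower. Both nuclear subunits that carry a redox cofactor fell. CYC1, cytochrome c1, was at 154, 133 and 139 CPM in DMSO and at 110, 99.0 and 94.2 CPM in JQ1 (log2 change -0.49 ± 0.09, edgeR adjusted p = 0.0025). UQCRFS1, the Rieske iron-sulphur protein, was at 70.4, 63.0 and 61.6 CPM in DMSO and at 56.5, 51.3 and 54.1 CPM in JQ1 (log2 change -0.27 ± 0.09, edgeR adjusted p = 0.038). The CYC1 groups are well separated and the UQCRFS1 groups are separated by a narrower gap.

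UQCRH, the hinge protein at the cytochrome c docking face, was at 134, 118 and 130 CPM in DMSO and at 102, 92.7 and 99.4 CPM in JQ1 (log2 change -0.38 ± 0.09, edgeR adjusted p = 0.0071), with no overlap. It had the highest level per kilobase in the complex, 211 ± 13.6 CPM per kb in DMSO. UQCRHL is a near-identical intronless copy of UQCRH with 839 counts in all against 15196, so reads of the pair may be shared and both values are uncertain. The large core proteins UQCRC1 (log2 change 0.003) and UQCRC2 (-0.06) passed no threshold, and neither did UQCRB (0.07) or UQCRQ (0.14). With the replicate block 7 genes fell in place of 3, and 29.6% of all tested genes did so. The added ones were UQCR10, UQCR11, UQCRHL and the assembly factor UQCC1 (edgeR adjusted p from 0.00097 to 0.025). UQCRFS1 was not called by DESeq2 on all 6 libraries (adjusted p = 0.061), and its edgeR call was lost without any 1 of the JQ1 libraries or DMSO replicate 1 or 2 (edgeR adjusted p from 0.058 to 0.13).

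CYCS encodes the mobile carrier cytochrome c, which also triggers apoptosis once released. It was at 125, 117 and 114 CPM in DMSO and at 146, 105 and 124 CPM in JQ1. The groups overlap fully and no change was called (log2 change 0.07 ± 0.12, edgeR adjusted p = 0.67). CYCS has 40 named pseudogenes, so its count too depends on how shared reads were assigned.

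Complex IV, cytochrome c oxidase, reduces oxygen at copper and haem centres held by subunits of the mitochondrial genome. Of its 28 nuclear genes 21 were tested, 4 fell, 2 rose, and the median log2 change was -0.07. The share that fell, 19%, is near the 20.6% of all tested genes. COX10 (ENSG00000006695.10, chromosome 17, 14069496 to 14208677 in GENCODE 29) makes haem O, the precursor of the haem A that only this oxidase uses. It was at 14.7, 14.6 and 16.4 CPM in DMSO and at 8.12, 8.17 and 8.57 CPM in JQ1. Its groups are tight and distant (log2 change -0.88 ± 0.13, edgeR adjusted p = 0.00049) and a level 1.84-fold higher in DMSO. COX15, which acts after COX10 in haem A synthesis, had a log2 change of 0.21 ± 0.09 with no call (edgeR adjusted p = 0.1) and rose with the replicate block (edgeR adjusted p = 0.0082).

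Among the other assembly genes, COX14, a partner of newly made MT-CO1, fell. It was at 27.1, 24.1 and 27.1 CPM in DMSO and at 19.9, 19.3 and 20.3 CPM in JQ1 (log2 change -0.40 ± 0.10, edgeR adjusted p = 0.012). COX19, a protein of copper delivery, was at 24.4, 22.8 and 23.4 CPM in DMSO and at 31.7, 29.1 and 26.5 CPM in JQ1 (log2 change 0.31 ± 0.10, edgeR adjusted p = 0.04). Neither gene's groups overlap, but 21.4% of the exon bases of COX19 are shared with another gene on the same strand. COX16 was at 3.84, 3.02 and 2.92 CPM in DMSO and at 2.83, 2.16 and 1.61 CPM in JQ1, the largest negative change among members with no call (log2 change -0.54 ± 0.25, edgeR adjusted p = 0.12). With the replicate block it fell (edgeR adjusted p = 0.016). Its level is low and 36% of its exon bases are shared with another gene on the same strand. COX11, COX17, COX18 and COX20 lay between -0.12 and 0.14 with no call.

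Of the 11 tested subunits of complex IV, 2 fell (18.2%) and 1 rose, beside 20.6% and 15.9% of all tested genes. COX5A was at 102, 86.9 and 91.7 CPM in DMSO and at 81.7, 66.1 and 71.6 CPM in JQ1 (log2 change -0.35 ± 0.10, edgeR adjusted p = 0.021). COX7C was at 126, 109 and 124 CPM in DMSO and at 98.4, 92.8 and 108 CPM in JQ1 (log2 change -0.27 ± 0.09, edgeR adjusted p = 0.049). In both, the highest JQ1 library lies just under the lowest DMSO library. COX6A1 rose, from 52.9, 53.4 and 54.9 CPM in DMSO to 60.4, 64.7 and 73.5 CPM in JQ1 (log2 change 0.30 ± 0.09, edgeR adjusted p = 0.029). COX6C had the highest level per kilobase of all the members, 430 ± 40.6 CPM per kb in DMSO and 434 ± 46.4 in JQ1. It was at 243, 224 and 270 CPM in DMSO and at 232, 232 and 278 CPM in JQ1, with overlapping groups and no call (log2 change 0.01, edgeR adjusted p = 0.95), and has 17 named pseudogenes.

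Calls for 4 of the complex IV genes were lost with other processing or in fits with 1 library left out. With all 6 libraries COX7C was not called by DESeq2 (adjusted p = 0.068), by limma-voom (0.051), with relative log expression factors (0.057) or without the genes of the mitochondrial genome (0.052). Its edgeR call was also lost without JQ1 replicate 1 or 2 or DMSO replicate 1 or 3 (edgeR adjusted p from 0.12 to 0.15), and the COX5A call without JQ1 replicate 2 or 3 or DMSO replicate 1 (0.066 to 0.078). COX6A1 was lost without JQ1 replicate 3 or DMSO replicate 1 or 2 (edgeR adjusted p from 0.07 to 0.12), and COX19 in every such fit except the one that lacked JQ1 replicate 3 (0.067 to 0.15). With all 6 libraries COX19 was also lost without the filter on low counts (edgeR adjusted p = 0.085) and with strands pooled (0.058). Scaling by library size alone ended the calls of both COX19 (0.11) and COX6A1 (0.083). The counts of genes that fell and rose were 2 and 0 without DMSO replicate 1, beside 17.3% and 12.4% of all tested genes. COX4I1 fell in the fit with the replicate block (edgeR adjusted p = 0.0021).

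Several complex IV subunits have tissue-restricted copies, and these were close to silent in ALL-SIL. COX6A2, COX6B2, COX7A1 and COX7B2 had 0 reads in the 6 libraries, as did NDUFA4L2. COX4I2 had 1 read in all against 19417 for COX4I1, and COX8C had 2 against 16254 for COX8A. None of these reached the filter on low counts, so the JQ1 comparison could not be made for them. The ubiquitous partners had 7898 (COX6A1) to 20170 (NDUFA4) counts.

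**Figure D3:**
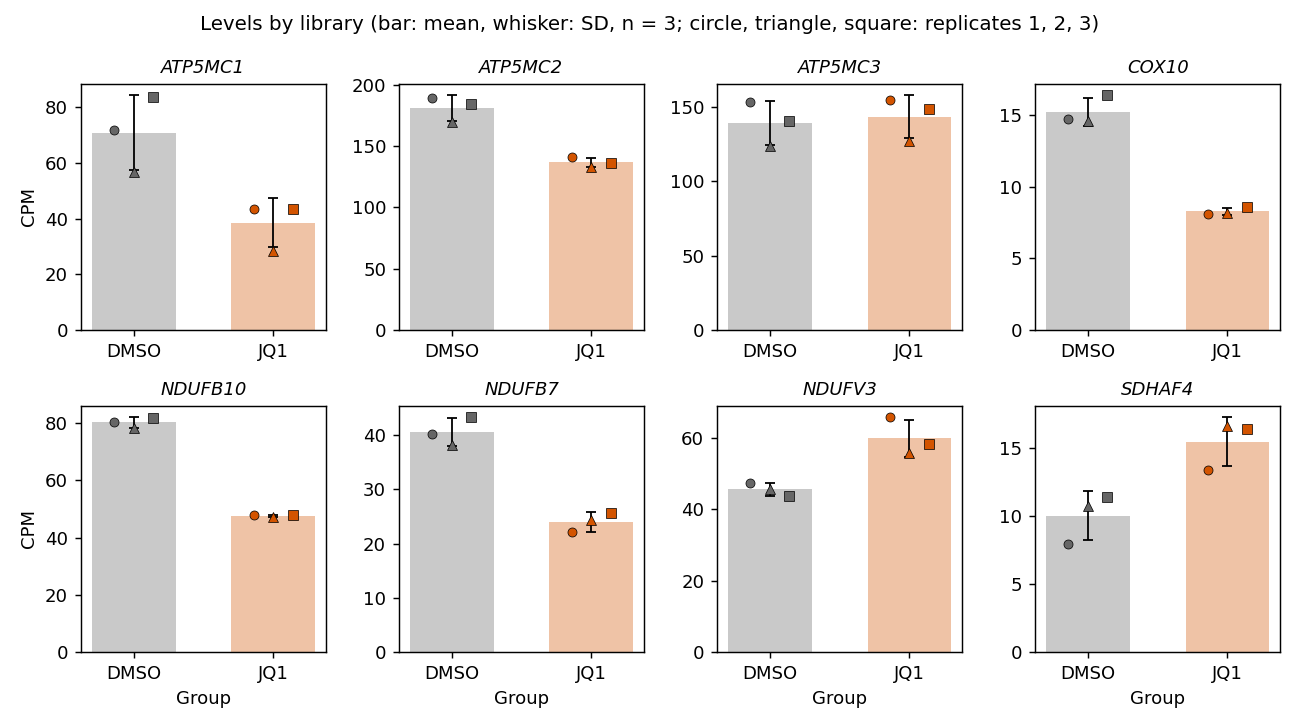
Levels in CPM on a linear axis from 0 are plotted for 8 members, with a point for each library, a bar at the mean and a whisker for the SD (n = 3). For NDUFB10, NDUFB7, COX10, ATP5MC1 and ATP5MC2 the JQ1 points lie below all DMSO points, for NDUFV3 and SDHAF4 above them, and for ATP5MC3 the groups overlap.

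Complex V, ATP synthase, couples a rotor of c subunits in the membrane to the catalytic F1 head. Of 19 tested genes 6 fell (31.6%) and 2 rose, beside 20.6% and 15.9% of all tested genes. The median log2 change was -0.16. The c subunit is made from 3 genes, ATP5MC1, ATP5MC2 and ATP5MC3, whose mature proteins are the same and whose import sequences differ. ATP5MC1 (ENSG00000159199.13, chromosome 17, 48892765 to 48895871 in GENCODE 29) was at 71.8, 56.9 and 83.7 CPM in DMSO and at 43.6, 28.4 and 43.6 CPM in JQ1. Replicates vary widely here, but the groups do not overlap (log2 change -0.88 ± 0.19, edgeR adjusted p = 0.0071). ATP5MC1 has 7 named pseudogenes. ATP5MC2 was at 190, 170 and 184 CPM in DMSO and at 141, 133 and 136 CPM in JQ1 (log2 change -0.41 ± 0.09, edgeR adjusted p = 0.0042). ATP5MC3 was at 153, 124 and 141 CPM in DMSO and at 155, 127 and 148 CPM in JQ1, with overlapping groups and no call (log2 change 0.04 ± 0.11, edgeR adjusted p = 0.79). The differences between these genes' changes were not tested.

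Of the 5 subunits of the F1 head, which holds the catalytic sites, 1 fell (20%), near the 20.6% of all tested genes. This was the delta subunit. Its gene ATP5F1D was at 25.4, 20.2 and 25.7 CPM in DMSO and at 15.1, 15.9 and 16.6 CPM in JQ1 (log2 change -0.58 ± 0.13, edgeR adjusted p = 0.0047), with no overlap. The catalytic beta subunit ATP5F1B had the highest level per kilobase in the complex, 291 ± 44.1 CPM per kb in DMSO. It was at 628, 475 and 504 CPM in DMSO and at 533, 434 and 474 CPM in JQ1, with overlapping groups and no call (log2 change -0.16 ± 0.13, edgeR adjusted p = 0.38). ATP5F1A (-0.01), ATP5F1C (-0.09) and ATP5F1E (0.07) passed no threshold.

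Of the small membrane subunits, ATP5MD was at 96.2, 91.8 and 93.4 CPM in DMSO and at 66.8, 69.0 and 71.2 CPM in JQ1 (log2 change -0.44 ± 0.08, edgeR adjusted p = 0.0016). ATP5ME, subunit e, was at 71.2, 67.1 and 73.4 CPM in DMSO and at 55.9, 54.2 and 55.1 CPM in JQ1 (log2 change -0.36 ± 0.08, edgeR adjusted p = 0.0061). Both sets of libraries are tight and apart. Among the 4 genes of the peripheral stalk, which holds the head still, ATP5PB, subunit b, fell (log2 change -0.37 ± 0.10) and ATP5PD, subunit d, rose (0.28 ± 0.08). ATP5PD was at 141, 142 and 133 CPM in DMSO and at 167, 167 and 170 CPM in JQ1, with an edgeR adjusted p of 0.02 and no overlap. ATP5S, named coupling factor B, rose as well (log2 change 0.38 ± 0.10, edgeR adjusted p = 0.012), but 10.5% of its reads came from the opposite strand and with strands pooled it was not called (edgeR adjusted p = 0.13).

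ATP5IF1, the inhibitor that blocks ATP hydrolysis by the enzyme, was at 68.2, 63.0 and 66.0 CPM in DMSO and at 67.8, 66.7 and 59.2 CPM in JQ1. Its groups overlap and no change was called (log2 change -0.02 ± 0.09, edgeR adjusted p = 0.86). ATP5MF and ATP5PO fell in the fit with the replicate block (edgeR adjusted p = 0.0074 and 0.031). Without JQ1 replicate 3 neither ATP5PB, ATP5PD nor ATP5S was called (edgeR adjusted p = 0.061, 0.064 and 0.052 in that order). In that fit 5 genes were lower and 0 higher in the complex, beside 17.1% and 11.9% of all tested genes. ATP5PB also lost its call without DMSO replicate 1 (edgeR adjusted p = 0.054). ATP5PD lost it without JQ1 replicate 1 (0.058) or DMSO replicate 3 (0.056). With all 6 libraries ATP5PD was also not called without the filter on low counts (edgeR adjusted p = 0.058).

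Summed by complex, the level of complex I genes was 2299 ± 91.4 CPM (SD, n = 3) in DMSO and 1971 ± 49.7 CPM in JQ1, a change of -14.3%. Complex III went from 1159 ± 18.2 to 1063 ± 5.86 CPM (-8.23%), complex V from 2795 ± 203 to 2584 ± 104 CPM (-7.55%) and complex IV from 1737 ± 57.1 to 1674 ± 54.0 CPM (-3.62%). Complex II was at 332 ± 21.0 CPM in DMSO and 361 ± 31.8 CPM in JQ1 (8.59%), and SDHA made up much of both. In complexes I and III every JQ1 sum lay below every DMSO sum, while the sums of complexes II, IV and V overlapped. In each of the 3 same-numbered pairs the JQ1 sum was lower for complexes IV and V and higher for complex II. Subunits and assembly factors were called lower at shares of 33.8% (27 of 80) and 25% (6 of 24). These stand beside 20.6% of all tested genes and 24.3% of the protein-coding ones, and the assembly factors lie near the latter. The difference between subunits and assembly factors was not tested.

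The 13 protein-coding genes of the mitochondrial genome, whose products sit in complexes I, III, IV and V, passed no threshold. None was called in either direction by edgeR, DESeq2 or limma-voom, none had an unadjusted edgeR p under 0.05, and their median log2 change was 0.06. Their summed level was 7041 ± 383 CPM in DMSO and 8007 ± 466 CPM in JQ1, with each JQ1 library above each DMSO library. Most of the sum and of its rise lay in MT-CO3 (mean 3012 CPM in DMSO and 3545 CPM in JQ1), MT-CO1 (1737 and 1999 CPM) and MT-CO2 (567 and 667 CPM). The log2 changes of MT-ND1 (-0.117), MT-ND2 (-0.105), MT-ND4L (-0.010) and MT-ND6 (-0.104) were below 0, and those of the other genes were above it. With the replicate block 4 of the 13 rose, beside 27.3% of all tested genes. They were MT-CO1, MT-CO2, MT-CO3 and MT-CYB (edgeR adjusted p with the block 0.026, 0.008, 0.011 and 0.014). Their log2 changes in the fit without it were 0.20, 0.24, 0.24 and 0.19.

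**Figure D4:**
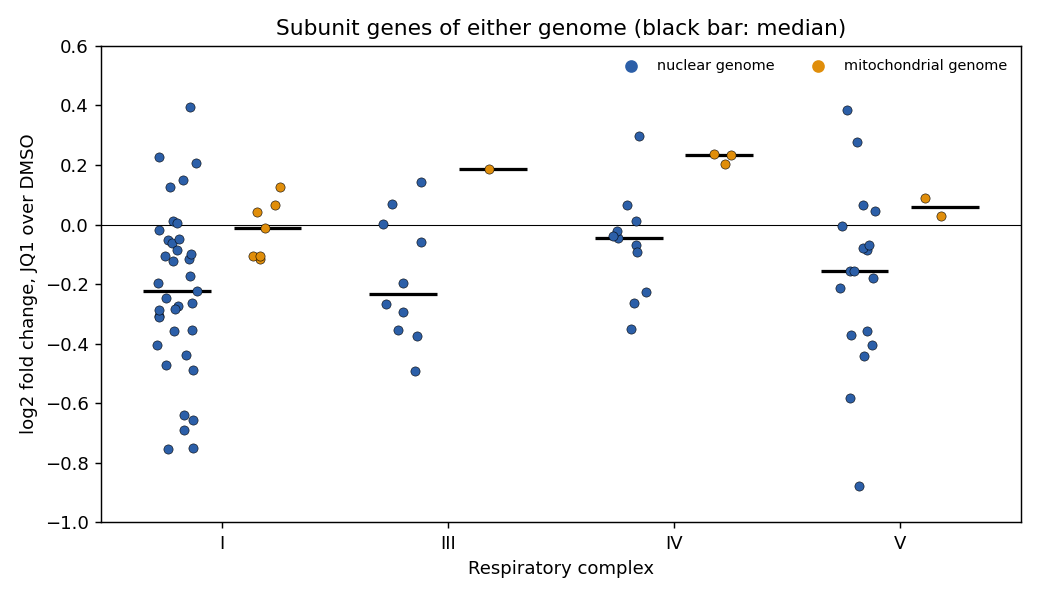
The log2 change (JQ1 over DMSO) of each tested subunit gene is plotted by complex, with nuclear genes and genes of the mitochondrial genome side by side and a black bar at each median. The nuclear medians lie below 0 in all 4 complexes shown.

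Genes around the chain were taken from lists outside the symbol rule. Over all tested genes 20.6% fell and 15.9% rose, and over the protein-coding ones 24.3% and 17%. Of 38 tested further assembly factors, 13 fell and 6 rose, with a median log2 change of -0.19. COA7, an assembly factor of complex IV, fell most, from 18.9, 19.9 and 18.9 CPM in DMSO to 5.33, 6.48 and 5.09 CPM in JQ1 (log2 change -1.77 ± 0.14, edgeR adjusted p = 1.7e-05). TMEM126A, a complex I factor, fell by 1.25 on the log2 scale (SE 0.16, edgeR adjusted p = 0.00028). SURF1, a complex IV factor, rose by 0.70 ± 0.15 (edgeR adjusted p = 0.0047) and TMEM242, which takes part in ATP synthase assembly, by 0.59 ± 0.13 (0.0062).

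In coenzyme Q synthesis 4 of 13 genes fell and none rose, among them COQ3, a methyltransferase of the pathway (log2 change -0.99, edgeR adjusted p = 0.00035), and COQ8A (-0.50, 0.002). DESeq2 and limma-voom also called 0 of these higher, and 2 were higher at an unadjusted edgeR p of 0.05. With the replicate block 2 rose, beside 27.3% of all tested genes. Of 7 other dehydrogenases that feed coenzyme Q 3 fell and 1 rose. DHODH, which makes pyrimidine precursors, fell (-0.96, edgeR adjusted p = 0.00061), and ETFB, part of the electron transfer flavoprotein, rose (0.65, 0.0059). In the citric acid cycle 3 of 14 fell and 3 rose, beside 20.6% and 15.9% of all tested genes. MDH2 (-0.50, edgeR adjusted p = 0.0034) and IDH3B (-0.42, 0.0035) fell, while OGDH (0.83, 0.00011) and DLST (0.48, 0.0045), both parts of the 2-oxoglutarate dehydrogenase, rose.

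For the cofactors, 4 of 16 iron-sulphur cluster genes fell and 1 rose, beside 20.6% and 15.9% of all tested genes. LYRM4, a partner of the cysteine desulphurase (log2 change -0.66, edgeR adjusted p = 0.0025), and HSCB, a co-chaperone of cluster transfer (-0.83, 0.008), fell. IBA57, which acts late in cluster assembly, rose (0.52, 0.0045). With the replicate block 6 fell and 6 rose, where the shares over all tested genes were 29.6% and 27.3%. Of 8 haem synthesis genes UROD fell (-1.44, edgeR adjusted p = 0.00027) and ALAD rose (0.54, 0.016), and 4 rose with the block. The ALAD call was lost without JQ1 replicate 1 or DMSO replicate 3 (edgeR adjusted p = 0.062 and 0.054).

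Of 18 tested regulators of respiratory and mitochondrial genes, 6 fell and 4 rose, beside 20.6% and 15.9% of all tested genes. MYC, a BET-dependent activator in many leukaemias, was at 345, 363 and 368 CPM in DMSO and at 120, 149 and 137 CPM in JQ1 (log2 change -1.41 ± 0.10, edgeR adjusted p = 1.4e-05). NRF1, the factor whose core motif was searched above, rose from 27.4, 30.0 and 32.4 CPM to 47.9, 40.8 and 48.5 CPM (log2 change 0.61 ± 0.11, edgeR adjusted p = 0.0015). The groups of both genes lie far apart, in opposite directions. GABPA, the DNA-binding subunit of GABP, was not called (-0.16 ± 0.11, edgeR adjusted p = 0.28), and its partners moved apart: GABPB2 fell (-0.88 ± 0.11, 0.00028) and GABPB1 rose (0.32 ± 0.08, 0.0085). The coactivators PPARGC1B (-1.19 ± 0.19, edgeR adjusted p = 0.0011) and PPRC1 (-0.67 ± 0.15, 0.0054) fell. TFAM, which packages mitochondrial DNA, was not called (-0.06 ± 0.10, edgeR adjusted p = 0.68), TFB2M, a mitochondrial transcription factor, fell (-0.998, 0.00033), and MTERF3 rose (0.39 ± 0.09, 0.0069).

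**Figure D5:**
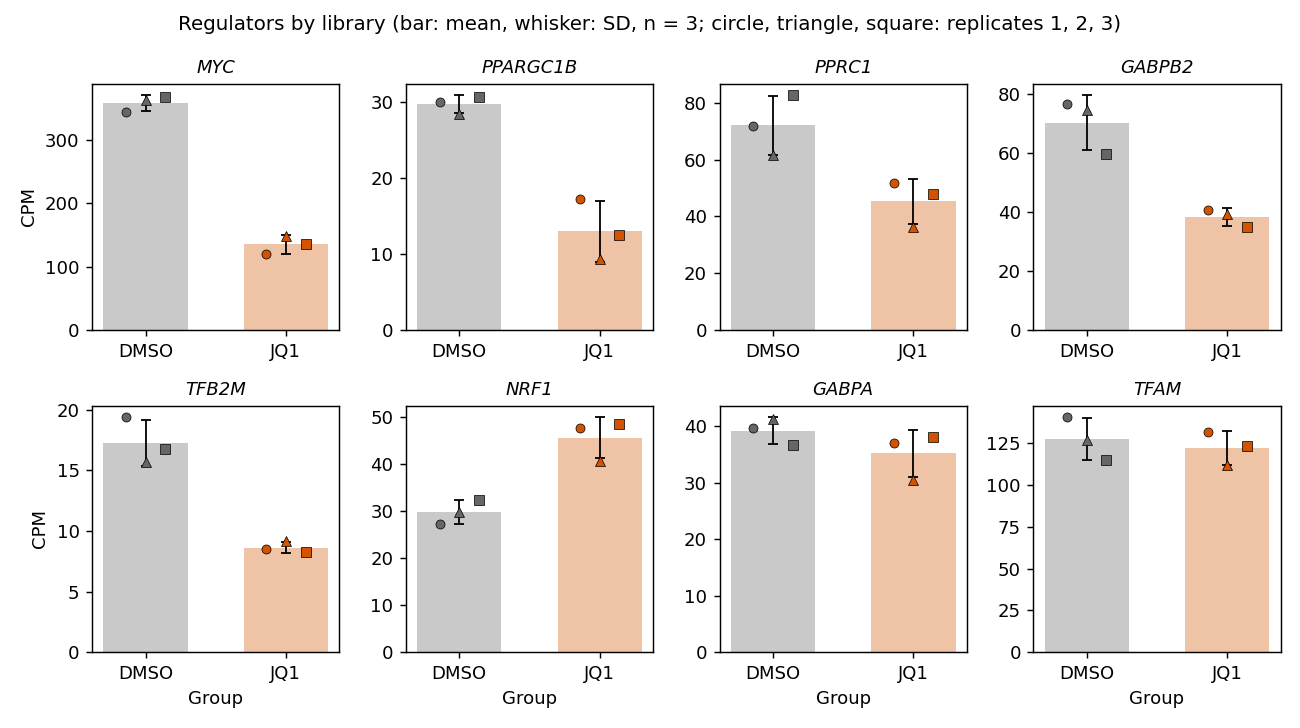
Levels in CPM on a linear axis from 0 are plotted for 8 regulators, with a point for each library, a bar at the mean and a whisker for the SD (n = 3). MYC, TFB2M and PPARGC1B lie lower in every JQ1 library, NRF1 lies higher, and the TFAM groups overlap.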

How the data were processed

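Libraries were prepared with a stranded total RNA kit, per the labels' protocols. The authors deposited 1 table of raw read counts per gene for each of the 6 libraries, with 3 count columns laid out as STAR writes them; aligner and annotation release: not given in the sources used here; the submitters' processing notes name GRCh38. Reverse-strand counts were analysed, which summed to 20.9 to 22.6 times those of the forward strand. Genes were named from GENCODE 29, and 604 of 58096 had no match.

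Counts kept by filterByExpr (minimum 10, total 15) were tested with edgeR 4.0.16 in R 4.3.3, by a robust quasi-likelihood fit with group as the only term over all 13975 genes, with Benjamini-Hochberg adjustment at 0.05. A gene counts as fallen or risen only past that threshold. The scripts were tested on simulated data. Alternatives were DESeq2 1.42.0, limma-voom 3.58.1, other scalings and filters, pooled strands, each library left out, and the replicate number as a block. Same-numbered libraries deviated together (correlations 0.326, 0.433 and 0.371 over the tested genes). The numbers come from the titles, and the labels do not say that they mark pairs. The main calls come from the fit without the block, and block values are given where they change a call. That fit had a common coefficient of variation between replicates of 0.126, against 0.0595 with the block. With the block 16 further members were called.

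The members and lists were chosen with earlier results of these data known. Values per library are given for up to 4 called members with the smallest p per complex and class, the most abundant member per kilobase, CYCS, ATP5IF1 and the extremes among uncalled members; those of NDUFV3, ATP5MC1, ATP5MC3, ATP5PD and some non-members were added after values were seen. Lists outside the symbol rule name up to 2 genes per direction. In the promoter search the NRF1 motif was shortened from the full palindrome to its core after a first search. Length is that of an APPRIS principal transcript or, where none was marked, the median over protein-coding transcripts. The rankings per kilobase depend on this choice. A called member is counted in the totals but not reported by name here.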

Additional observations from a re-analysis of the deposited data

How the results depend on the processing

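Of the 39 called members, 22 were called in the same direction in all 15 alternative fits, and the other 17 missed the threshold in at least 1 of them; no called member changed sign. With each library left out in turn, the fewest members fell without DMSO replicate 1. There 21 of 108 fell, near the 17.3% of all tested genes. The most fell without DMSO replicate 2, 31 of 108, also beside 17.3%. The count that rose was lowest without JQ1 replicate 3, 3 of 108 beside 11.9% of all tested genes. It was highest, at 6, without JQ1 replicate 2 (beside 13.1%) or DMSO replicate 3 (13.5%). In the fit with the replicate block, all 39 calls remained, and 45 members fell and 10 rose, beside 29.6% and 27.3% of all tested genes. Scaling by library size alone gave a median log2 change of -0.18, with -0.06 over all tested genes. It gave 39 members lower and 3 higher, beside 23.2% and 12.1% of all tested genes, and COX6A1, COX19 and ATP5PD then missed the threshold. DESeq2 gave 28 lower and 6 higher, beside 19.6% and 16.2% of all tested genes.

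Values near 0, none of them called, changed sign in fits with each library left out in turn: ATP5IF1 ranged from -0.059 (without JQ1 replicate 1) to 0.034 (without JQ1 replicate 3) and was 0.006 without DMSO replicate 1, CYCS ranged from -0.055 (without JQ1 replicate 1) to 0.179 (without JQ1 replicate 2), and TFAM ranged from -0.123 (without DMSO replicate 3) to 0.018 (without DMSO replicate 1) and was 0.002 without JQ1 replicate 2. The cause of these shifts was not tested. Fits without 1 library have fewer samples. Among members clear of same-strand exon overlap 22 of 77 fell (28.6%) and 4 rose. Among those with no named pseudogene 16 of 56 fell (28.6%) and 4 rose. These shares stand beside 30.8% lower over all tested members. Over all tested genes 20.6% fell and 15.9% rose, and over the protein-coding ones 24.3% and 17%. The 10 members under the count filter could not be compared at this depth.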

Other observations

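Among 4 tested genes for uncoupling and alternative routes, UCP2, an inner-membrane carrier, rose from 18.4, 28.6 and 28.3 CPM in DMSO to 46.7, 67.6 and 59.1 CPM in JQ1 (log2 change 1.20 ± 0.19, edgeR adjusted p = 0.0012). The groups do not overlap, and each JQ1 library is above the DMSO library of the same number. None of these 4 genes fell by edgeR, DESeq2 or limma-voom, and none was lower at an unadjusted edgeR p of 0.05.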
